A study of Mus musculus with 4 samples.

Results

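Mature migratory Ccr7 dendritic cells (DCs) were a small population in the ascites of mice with ovarian tumors, 292 of the 49491 barcodes that passed the limits on genes and mitochondrial UMIs and of 133849 deposited barcodes. A barcode entered the population when it held 800 to 4800 genes, at most 15% mitochondrial UMIs, at least 3 UMIs summed over Ccr7, Fscn1 and Ccl22 with at least 2 of these 3 genes detected, and 0 UMIs of C1qa, C1qb, Cd79a and Cd3e. The members were therefore selected on measured values, and the 3 selecting genes are described below without any test. The data were 4 droplet libraries of 3′ RNA counts. Each was ascites of female FVB mice that carried Br-Luc ovarian tumors, taken 6 weeks after tumor cell injection and pooled from several mice. Replicates 1 and 2 of siCont-LNA came from mice given a scrambled control siRNA modified with locked nucleic acid (LNA), and replicates 1 and 2 of siFXR1-LNA from mice given an LNA-modified siRNA against Fxr1, an RNA-binding protein, both packed in jetPEI nanoparticles. All groups thus carried the tumor, the nanoparticle and an LNA-modified siRNA, and no library came from a mouse without a tumor. The study's methods set aside 1 siFXR1-LNA sample, described by its lower read and cell numbers and not by its replicate number. Of both, siFXR1-LNA 2 had the fewer deposited barcodes (17309 against 54665) and UMIs (78179267 against 113606837). Both are kept here.

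DCs take up antigen in tissue, and on maturation they raise the chemokine receptor CCR7, which guides them along CCL19 and CCL21 towards lymph nodes. The mature state is known for an actin-rich, mobile cell body, for costimulatory and regulatory surface molecules, and for NF-kappaB signaling, and both main conventional lineages, cDC1 and cDC2, can enter it. In tumors such cells are described as holding stimulatory and inhibitory molecules side by side.

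The library labelled siCont-LNA 1 held 116 mature DCs, siCont-LNA 2 held 96, siFXR1-LNA 1 held 46 and siFXR1-LNA 2 held 34. Their median depth was 4838.5, 6966.5, 4788 and 6383.5 UMIs per cell in the same order, with 1762.5, 2133, 1818 and 2184 genes. Per population and library, UMIs were summed and scaled to a total of 1000000 (CPM). The sums held 588566, 702571, 239162 and 248099 UMIs, so the siFXR1-LNA values rest on fewer counts. No member's barcode sequence was shared between libraries, while 1.6% to 2.3% of barcodes within the limits were shared between a pair of libraries. Hemoglobin genes took a median of 7.75%, 0.55%, 1.44% and 0.162% of a member's UMIs, and in the sums the 6 erythroid markers, led by Hbb-bs, were at 102247, 72835, 48791 and 54801 CPM, lower in both siFXR1-LNA libraries.

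Fxr1, the target of the siRNA, was at 68 and 88.2 CPM in siCont-LNA and 54.4 and 84.6 CPM in siFXR1-LNA in mature DCs. The ranges of the groups overlapped (log2 fold change -0.22 ± 0.34 (SE), adjusted p = 0.778 in edgeR's quasi-likelihood test). In all other barcodes Fxr1 was at 66.7, 55.5, 96.8 and 75.3 CPM, higher in both siFXR1-LNA libraries than in both controls. The RNA of the target gene was thus not lower throughout the libraries labelled siFXR1-LNA, so the target does not check the labels, and the groups are named below only by these labels.

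The selecting genes are Ccr7 (ENSMUSG00000037944, chr11:99144196-99155077, minus strand), Fscn1 (ENSMUSG00000029581, chr5:142960343-142973185, plus strand) and Ccl22 (ENSMUSG00000031779, chr8:94745590-94751699, plus strand), by GENCODE vM21 on GRCm38. Ccr7 was at 1548 and 2727 CPM in siCont-LNA and 1484 and 1717 CPM in siFXR1-LNA. Fscn1, which bundles actin in the dendrites of mature DCs, was at 2301 and 2734 CPM in siCont-LNA and 903 and 947 CPM in siFXR1-LNA. Ccl22, a chemokine that draws CCR4-bearing T cells, was at 574 and 389 CPM in siCont-LNA and 648 and 593 CPM in siFXR1-LNA. Fscn1 was lower in both siFXR1-LNA libraries than in either control, whereas the libraries overlapped for Ccr7 and were both higher in siFXR1-LNA for Ccl22. The median sum of the 3 genes was 20, 39.5, 13.5 and 14 UMIs per member, and all 3 genes were detected in 55, 59, 19 and 9 members. Just inside the limit, 3, 0, 1 and 3 members had a sum of exactly 3 and 3, 2, 9 and 3 a sum of 4 or 5, a larger part of the 46 and 34 siFXR1-LNA members than of the 116 and 96 controls. Just outside it, 10, 31, 15 and 19 barcodes held enough UMIs but of a single gene, and 0, 1, 3 and 2 held 1 UMI of each of a pair of the genes.

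The label was checked against 3 markers that the selection did not use. Il4i1, an enzyme that degrades phenylalanine, was at 719 and 608 CPM in siCont-LNA and 439 and 802 CPM in siFXR1-LNA, against 16.9, 9.71, 1.85 and 5.75 CPM in all other barcodes. Mreg, melanoregulin, was at 265 and 441 CPM in siCont-LNA and 201 and 335 CPM in siFXR1-LNA, against 7.29, 6.13, 4.02 and 6.43 CPM. Apol7c, an apolipoprotein L family member of mature DCs, was at 299 and 322 CPM in siCont-LNA and 71.1 and 318 CPM in siFXR1-LNA, against 7.13, 3, 0.0172 and 0.68 CPM. All 3 were higher in the members than in the other barcodes of the same library in each of the 4 libraries, and Apol7c was lowest in siFXR1-LNA 1. Flt3, the receptor of the DC growth factor FLT3L, was at 151 and 211 CPM in siCont-LNA and 179.8 and 173 CPM in siFXR1-LNA, against 22.3, 27.8, 5.67 and 8.54 CPM in the other barcodes. By these markers, set against all other barcodes of their library, the members answered to their label. The 8 granulocyte markers summed to 23.8, 354, 5716 and 935 CPM in the members and 472, 3289, 6640 and 10399 CPM in the other barcodes. In siFXR1-LNA 1 the members thus came near the other barcodes for these markers. The part of granulocyte RNA in the members was not tested.

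Mature DCs made up a smaller share of barcodes in both siFXR1-LNA libraries than in either control. They were 0.854% of barcodes (95% exact binomial interval 0.706% to 1.023%) in siCont-LNA 1 and 1.25% (1.01% to 1.52%) in siCont-LNA 2. In siFXR1-LNA 1 they were 0.282% (0.206% to 0.376%) and in siFXR1-LNA 2 0.286% (0.198% to 0.399%). The mean was 1.05% ± 0.277 (SD, n = 2) against 0.284% ± 0.00287 (SD, n = 2), a ratio of 0.27, and the groups did not overlap. Intervals cover counting error only. With 2 libraries a group, the two-sided exact permutation test cannot go below p = 0.333, which is the value it gave. Over barcodes with a Ptprc UMI, the common leukocyte gene, the share was 0.854%, 1.11%, 0.476% and 0.349%, and over barcodes with under 1% hemoglobin UMIs 1.3%, 1.85%, 0.539% and 0.263%. In a share, fewer cells of a type cannot be told apart from more of another, nor from lower levels of the selecting genes, of which Fscn1 was lower in both siFXR1-LNA libraries.

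Conventional DCs were taken as cDC1-like (at least 2 UMIs of Clec9a and Xcr1) or cDC2-like (at least 2 UMIs of Cd209a and Mgl2, none of Clec9a or Xcr1), with the same barred genes and outside the mature gate. There were 137, 112, 29 and 20 cDC1-like and 257, 248, 43 and 58 cDC2-like cells. Mature DCs per conventional DC were 0.294 and 0.267 in siCont-LNA and 0.639 and 0.436 in siFXR1-LNA. The mean ratio was 0.281 ± 0.0196 against 0.537 ± 0.144 (SD, n = 2 each; exact permutation p = 0.333, the smallest possible), with no overlap. Cd209a, a selecting gene of cDC2-like cells, was at 1298, 1323, 205 and 399.7 CPM in the cells that passed and Mgl2 at 1060, 989.9, 709 and 652 CPM, both lower in siFXR1-LNA, so a change in number and a change in these genes cannot be told apart in the ratio. The ratio moved with the gate: when all 3 selecting genes were required it was 0.138 and 0.163 against 0.264 and 0.113, and the groups overlapped. The barred genes also counted: 346, 165, 64 and 85 barcodes met the clause on Ccr7, Fscn1 and Ccl22, of which 207, 41, 14 and 51 carried C1qa or C1qb, complement genes of macrophages. Without the bar the shares were 2.55%, 2.14%, 0.392% and 0.715%, again lower in both siFXR1-LNA libraries.

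**Figure D1:**
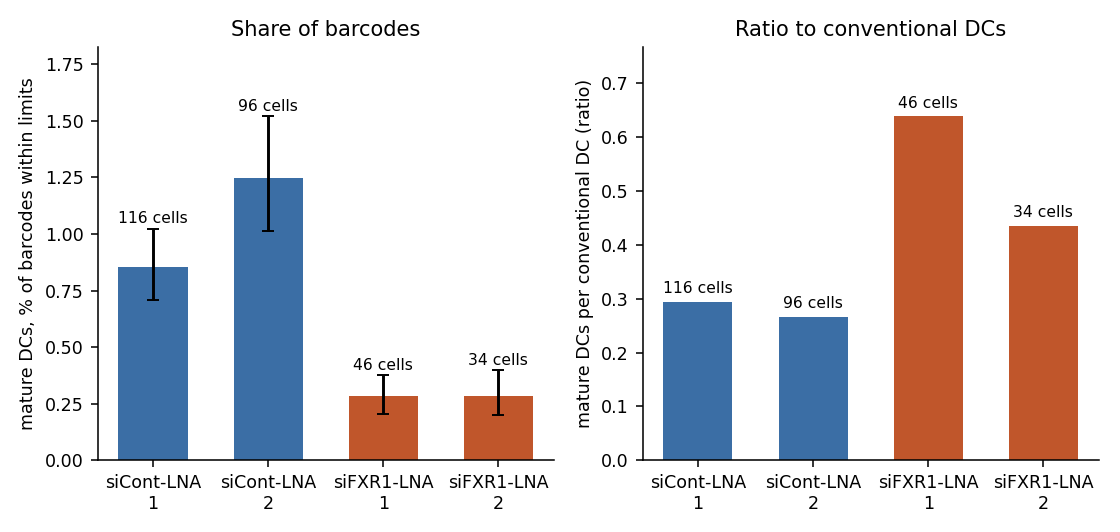
Mature DCs in each library. Left, percent of barcodes within the limits, with bars for the value and whiskers for the 95% exact binomial interval. Right, mature DCs per conventional DC (cDC1-like plus cDC2-like). The number of mature DCs stands above each bar. Both siFXR1-LNA libraries lie below both controls on the left (0.282% and 0.286% against 0.854% and 1.25%) and above them on the right.

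Against cDC1-like and cDC2-like cells of the same libraries, mature DCs were higher in the chemokines Ccl5 and Ccl17, in NF-kappaB genes, in Cd40, Cd274 and Pdcd1lg2 and in cytoskeletal genes, and lower in MHC class II genes and in most tested markers of the lineage they were set against. Against cDC1-like cells 1011 of 5181 genes were higher (19.5%) and 879 lower (17%), with the 3 selecting genes and the genes that define cDC1-like cells left out. Against cDC2-like cells 1121 of 5819 were higher (19.3%) and 1038 lower (17.8%). Both comparisons used the same mature DC sums and are given side by side. The library was a block in these edgeR fits, and the median log2 fold change over all genes tested was 0.01 and 0.00045. The number of genes passing fell to 1111 and 1122 against cDC1-like cells, and to 1157 and 1254 against cDC2-like cells, without siCont-LNA replicate 1 and 2 respectively, from 1890 and 2159.

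Of 30 further genes listed for mature DCs, 28 of 29 tested were higher than in cDC1-like cells (median log2 fold change 4.87) and 28 of 29 higher than in cDC2-like cells (median 4.55). Fabp5, a fatty acid carrier, was at 4176, 3127, 2438 and 2326 CPM in the 4 libraries in order, against 5.12, 4.6, 27.6 and 5.43 CPM in cDC1-like and 79.6, 23.1, 39.9 and 123 CPM in cDC2-like cells. It was higher in every library (log2 fold change 8.95 ± 0.36 (SE), adjusted p = 8.89e-08 in edgeR against cDC1-like cells). Tmem123, a membrane mucin, was at 1646, 1890, 815 and 1036 CPM in mature DCs and at 69.2, 64.9, 69.9 and 93.2 CPM in cDC2-like cells (log2 fold change 4.40 ± 0.26 (SE), adjusted p = 1.55e-06 in edgeR). Cst3, cystatin C, a cysteine protease inhibitor that DCs hold at high level, was lower than in cDC1-like cells (-1.01 on the log2 scale) and higher than in cDC2-like cells (0.82). Against cDC2-like cells the gene that did not pass was Adam23 (log2 fold change -0.24 ± 0.12 (SE), adjusted p = 0.15).

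Among chemokines, Ccl5, which attracts T cells and other leukocytes, had the widest gap to cDC1-like cells. It was at 9637, 8806, 5942 and 3245 CPM in mature DCs and at 34.5, 17.5, 60.6 and 5.43 CPM in cDC1-like cells (log2 fold change 8.32 ± 0.32 (SE), adjusted p = 8.89e-08 in edgeR). A Ccl5 UMI was seen in 95.7%, 95.8%, 95.7% and 79.4% of mature DCs, and in 90.5%, 86.5%, 84.8% and 73.5% after each cell was thinned to 1500 UMIs. In B cells of the same libraries, which should hold little of it, the thinned shares were 2.06%, 1.73%, 9.35% and 6.39%; the B cells' median depth was 2638, 3167, 2325 and 2462.5 UMIs. The share in mature DCs was thus far above that background in each library. Ccl17, a second CCR4 ligand, was at 263, 99.6, 209 and 294 CPM, higher than in cDC1-like (3.21) and cDC2-like cells (2.55 on the log2 scale). Cxcl16, the ligand of CXCR6, was higher than in both. Ccr2, a receptor of inflammatory chemokines, was lower than in both. It was at 25.5, 1.42, 0 and 12.1 CPM in mature DCs, against 400.4, 442, 82.7 and 293 CPM in cDC1-like cells (log2 fold change -4.91 ± 0.47 (SE), adjusted p = 1.51e-05 in edgeR).

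Cytoskeletal and migration genes were mostly higher, 16 of 23 tested against each lineage, with 5 and 4 lower. Actb, beta-actin, was at 19493, 19174, 11398 and 15445 CPM in mature DCs and 10667, 10925, 5639 and 9125 CPM in cDC2-like cells (log2 fold change 1.00 ± 0.07 (SE), adjusted p = 3.54e-06 in edgeR). Myo1g, a membrane-bound myosin, was higher by 2.95 and 2.95 on the log2 scale, and Plxnc1, a semaphorin receptor, by 5.27 and 3.51. Gpr183, the oxysterol receptor that positions DCs in lymphoid tissue, was at 192, 124, 121 and 310.4 CPM, above both lineages. Itgb2 and Itgb7, integrin beta chains, and Tmsb10, which binds free actin, were lower than in both.

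NF-kappaB genes were higher in 17 of 19 tested against cDC1-like cells (median 2.47) and in 16 of 21 against cDC2-like cells (median 2.08), and none was lower. Relb, the subunit of the noncanonical arm, was at 654, 769, 401 and 556 CPM, against 25.6, 24.8, 44.1 and 38 CPM in cDC1-like cells (log2 fold change 4.52 ± 0.30 (SE), adjusted p = 1.33e-06 in edgeR). Traf1, an adaptor of TNF receptors, was at 773, 949, 493 and 782 CPM, and Birc3, an inhibitor of apoptosis that acts beside it, at 443, 401, 255 and 411 CPM. Bcl2a1b, a survival gene with near-identical copies whose reads may be split, was higher than in both lineages.

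Of the costimulation list, 4 of 8 tested genes were higher and 3 lower than in cDC1-like cells, and 7 of 10 higher and 2 lower than in cDC2-like cells. Cd40, which receives the CD40L signal of T cells, was at 114, 118, 121 and 125 CPM, nearly level across the 4 libraries, against 3.84, 2.76, 5.51 and 10.9 CPM in cDC1-like cells (log2 fold change 4.89 ± 0.34 (SE), adjusted p = 1.93e-06 in edgeR). Cd83, a maturation marker, was at 528, 712, 259 and 693 CPM. Cd80 and Cd86, the ligands of CD28 and CTLA-4, were higher than in cDC2-like cells (2.02 and 1.37 on the log2 scale), while Cd86 against cDC1-like cells gave log2 fold change -0.04 ± 0.21 (SE), adjusted p = 0.912 in edgeR.

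Of the inhibitory list, 8 of 12 tested genes were higher and 3 lower than in cDC1-like cells, and 6 of 11 higher and 2 lower than in cDC2-like cells. Cd274, which encodes PD-L1, was at 255, 409.9, 347 and 290.2 CPM in mature DCs and 44.6, 38.5, 105 and 76 CPM in cDC2-like cells (log2 fold change 2.64 ± 0.28 (SE), adjusted p = 4.48e-05 in edgeR). Pdcd1lg2, PD-L2, was at 110.4, 142, 66.9 and 137 CPM, and Aldh1a2, which makes retinoic acid, at 372, 248, 113 and 68.5 CPM, both above both lineages. Cd200, the ligand of an inhibitory myeloid receptor, was higher by 4.25 and 5.84. Tgfb1 and Lgals9 were lower than in both lineages.

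Of 20 cytokine genes 4 and 7 were tested against the lineages, of which 3 were higher than in cDC1-like cells and 4 higher and 1 lower than in cDC2-like cells. Il12b, the p40 chain of interleukin 12, was at 263, 299, 20.9 and 141 CPM in mature DCs and held 155, 210, 5 and 35 UMIs, against 0, 0.481, 0 and 0 CPM in cDC2-like cells. It was detected in 22.4%, 31.2%, 4.35% and 11.8% of mature DCs, and it was 0 in all cDC1-like cells, where it was not tested. Il12a, the partner chain, had 0, 1, 0 and 0 UMIs in the members. Il15 and its receptor chain Il15ra, which present interleukin 15 to lymphocytes, were higher than in both lineages, Il15 by 2.53 and 3.34 on the log2 scale.

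MHC class II genes were lower in 9 of 10 tested against cDC1-like cells (median -1.46) and in 10 of 10 against cDC2-like cells (median -1.82). H2-Aa, an alpha chain, was at 5518, 4051, 4315 and 7844 CPM, against 11049, 12310, 10334 and 11310 CPM in cDC2-like cells (log2 fold change -0.96 ± 0.15 (SE), adjusted p = 4.55e-04 in edgeR). Ciita, the master regulator of the class II genes, gave -2.23 and -2.36 on the log2 scale, and H2-DMb1, a peptide exchange chain, -3.79 and -3.09. MHC class I genes went the other way: 11 of 19 were higher and 1 lower than in cDC1-like cells, and 15 of 19 higher and 1 lower than in cDC2-like cells. B2m, the class I light chain, was at 3969, 4149, 2492 and 2201 CPM, against 1460, 1382, 1472 and 1310 CPM in cDC1-like cells (log2 fold change 1.28 ± 0.17 (SE), adjusted p = 1.52e-04 in edgeR).

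Lineage genes were mostly lower than in the matching conventional type. Of the cDC1 list, 11 of 12 tested genes were lower than in cDC1-like cells, such as Wdfy4, needed for cross-presentation (-4.87), and Naaa (-5.53 on the log2 scale). Irf8, the cDC1 transcription factor, was at 262, 346, 50.2 and 76.6 CPM in mature DCs, lower than in cDC1-like (-2.71) and higher than in cDC2-like cells (4.10). Of the cDC2 list, 6 of 9 were lower than in cDC2-like cells, with Clec10a at -4.17 and Sirpa at -1.67. Tnfrsf11a, the receptor RANK, was higher than in both lineages. Of 11 DC lineage genes tested, 7 were lower and 0 higher than in cDC1-like cells, with Flt3 among the 7. Against cDC2-like cells 5 of 11 were lower and 3 higher, with Flt3 among the 3. Of 10 genes listed for plasmacytoid DCs, 3 were tested against cDC1-like cells, of which Atp1b1 was higher, and 4 against cDC2-like cells, with no call.

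**Figure D2:**
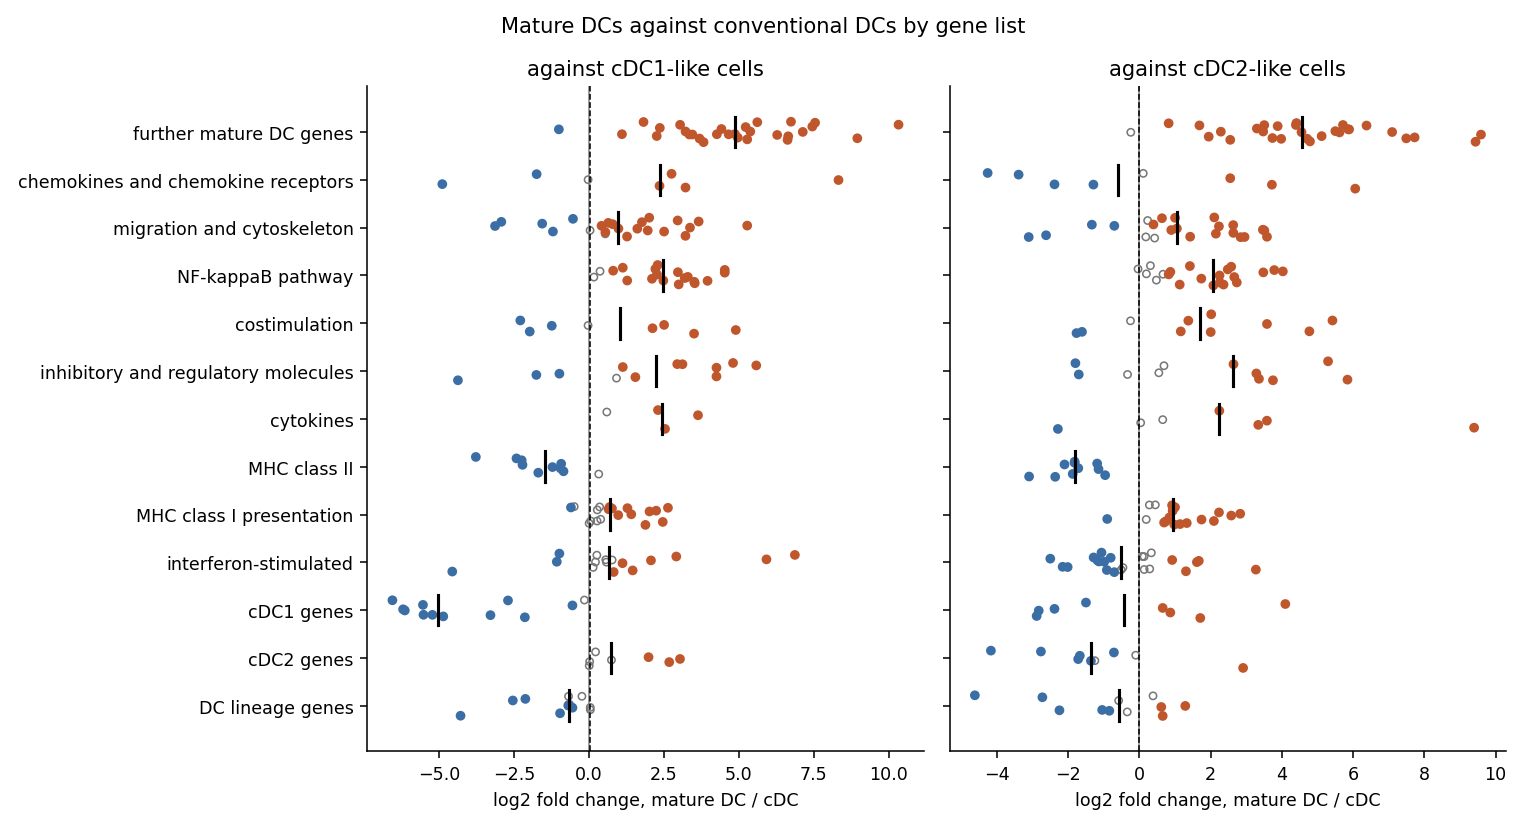
Log2 fold changes of mature DCs against cDC1-like cells (left) and cDC2-like cells (right) for the tested members of each gene list. Filled points passed an adjusted p of 0.05 (orange higher, blue lower in mature DCs), open points did not, black ticks are list medians and the dashed line is the median of all genes tested. NF-kappaB genes lie to the right in both panels (medians 2.47 and 2.08) and MHC class II genes to the left.

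The 10 largest fitted differences over cDC1-like cells were those of Fabp5, Ccl5, Nudt17, Mir155hg, Lad1 and Il2ra, with Apol7c and the predicted genes Gm16685, Gm10851 and Gm13546. Il2ra is the interleukin 2 receptor alpha chain and Mir155hg the host of a microRNA of activated immune cells. Lower were Fam149a, Fzd1, Sept3, Rab7b, Gcsam, Tlr3, Gm42962, Itgae, Naaa and Cxcr3. Over cDC2-like cells the largest were Apol7c, Slco5a1, Lad1, Arc, Il12b, Mab21l3, Tmem150c, Bcl2l14, Gm13546 and Dscaml1. Below them were Cd101, Camkk1, Cd209c, Pilrb1, Kmo, Pilrb2, Cd200r1, Ctnnd2, Ccr2 and Clec10a. Nudt17, Mir155hg, Lad1, Il2ra, Gm16685 and Gm10851 had 0 UMIs in cDC1-like cells, Apol7c, Slco5a1, Lad1, Arc, Mab21l3, Tmem150c and Dscaml1 had 0 in cDC2-like cells, and Fam149a, Fzd1, Cd101 and Camkk1 had 0 in mature DCs. Their fitted differences are no bounds, and no order is read from them. Tlr3, the receptor of double-stranded RNA, had 3, 0, 0 and 0 UMIs in the mature DCs of the 4 libraries.

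Between the siFXR1-LNA and siCont-LNA libraries, 10 of 22 interferon-stimulated genes tested, 9 of 19 MHC class I genes and 11 of 30 further mature DC genes fell in mature DCs, and none of them rose. Of hypoxia and glycolysis genes 12 of 21 rose. Costimulation, NF-kappaB and MHC class II genes, with 11, 21 and 10 tested, had no call, which was near the share over all genes. Of 5181 genes tested by edgeR, 120 were higher (2.32%) and 127 lower (2.45%) in siFXR1-LNA. The median log2 fold change over all genes tested was 0.02. DESeq2 called 67 higher and 121 lower, with a median of -0.12. When barcodes with a UMI of further lineage genes were left out as well, 33, 54, 12 and 14 members remained and 59 of 1780 genes passed, 40 higher and 19 lower. Without siFXR1-LNA replicate 2, 387 genes passed. Beside these changes, the members' median mitochondrial share was 0.518% and 0.554% in siCont-LNA and 0.944% and 0.759% in siFXR1-LNA, and ribosomal protein genes summed to 117887, 116983, 149004 and 154954 CPM. The 6 erythroid markers were lower in sum in both siFXR1-LNA libraries. The 11 T cell markers, led by Cd8a, summed to 68, 65.5, 8.36 and 16.1 CPM in the members and 268, 595, 66.4 and 159 CPM in the other barcodes. The part of these in the changes was not tested.

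Interferon-stimulated genes fell in 10 of 22 tested and rose in none, with a median of -2.01. Isg15, a ubiquitin-like modifier, was at 357 and 623 CPM in siCont-LNA and 100.3 and 105 CPM in siFXR1-LNA (log2 fold change -2.30 ± 0.33 (SE), adjusted p = 0.0104 in edgeR). Bst2, tetherin, which holds budding viruses at the membrane, was at 372 and 443 CPM in siCont-LNA and 96.2 and 60.5 CPM in siFXR1-LNA (log2 fold change -2.43 ± 0.30 (SE), adjusted p = 0.00782). Usp18, which limits interferon receptor signaling, was at 114 and 124 CPM in siCont-LNA and 12.5 and 24.2 CPM in siFXR1-LNA (log2 fold change -2.72 ± 0.40 (SE), adjusted p = 0.0116). For each of these genes both siFXR1-LNA libraries lay below both controls.

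Irf7 (-3.47), Gbp2 (-2.04), Stat2 (-1.80), Oasl1, Oasl2, Xaf1 and Ifit1 were the other falls. Ifit1 had 15, 39, 0 and 0 UMIs in the 4 libraries, so that it was at least 6.79-fold lower in siFXR1-LNA with 3 counts over the group as the floor. The genes were not lower in mature DCs alone: in all other barcodes Isg15 was at 272, 342, 41.7 and 43.1 CPM and Bst2 at 421, 484, 66.4 and 117 CPM. Whether RNA from other cells takes part was not tested. In the test of the difference between mature and conventional DCs, 1 of 24 interferon-stimulated genes passed, Isg20, an exonuclease, which was at 88.4, 68.3, 66.9 and 68.5 CPM in mature DCs and 146, 150, 39.3 and 16.9 CPM in conventional DCs (log2 fold change 2.15 ± 0.48 (SE), adjusted p = 0.0337 in edgeR for the difference of effects).

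Promoters of the interferon-stimulated and class I genes that fell are shown because many hold, on either strand, the letters GAAA followed after any 2 bases by GAAA, the core of an interferon response element. The motif was chosen after the falls of these genes were known. The letters were searched in the 250 bases before the start site of 27025 genes (RefSeq, GRCm38.p6), of which 3.46% held them. They were present in 12 of 21 interferon-stimulated genes with a promoter, in 5 of the 9 that fell, and in 3 of the 9 class I genes that fell. Of the 96 genes that fell with a promoter 12.5% held them, and of the 90 that rose 8.89%, against 3.94% of the 4184 tested genes with one. A match is a description of the sequence and not a shown site. The stretches below read 5′ to 3′ on the gene's strand with 25 bases on each side, and capitals mark every match, overlapping ones joined.
Isg15: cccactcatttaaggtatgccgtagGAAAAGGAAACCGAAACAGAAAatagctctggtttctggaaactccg
Ifit1: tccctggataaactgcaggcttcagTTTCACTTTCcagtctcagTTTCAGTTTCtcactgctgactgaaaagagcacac
Bst2: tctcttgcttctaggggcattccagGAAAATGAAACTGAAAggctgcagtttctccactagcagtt
Gbp2: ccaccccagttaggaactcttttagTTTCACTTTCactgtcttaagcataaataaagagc
Stat2: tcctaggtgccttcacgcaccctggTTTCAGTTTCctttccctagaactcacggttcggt
B2m: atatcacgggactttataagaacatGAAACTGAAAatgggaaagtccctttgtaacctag
The stretch of Isg15 is at chr4:156200850-156200921 and Bst2 at chr8:71537562-71537627 on the minus strand, and Ifit1 at chr19:34640760-34640838, Gbp2 at chr3:142620579-142620638, Stat2 at chr10:128270251-128270310 and B2m at chr2:122147523-122147582 on the plus strand. Isg15 held 3 matches, Ifit1 and Bst2 2 each, and the others 1. In Isg15 and Bst2 the matches overlap and in Ifit1 they are separate. In Ifit1, Gbp2 and Stat2 the letters lie on the opposite strand and read as TTTC, any 2 bases and TTTC. A second motif, GGGA, any 2 bases and TTCC, of NF-kappaB, was searched in the same windows on both strands and was present in 1.36% of all genes with a promoter, in 3 of the 18 NF-kappaB genes, in 2 of the 96 falls and in 3 of the 90 rises.

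MHC class I genes fell in 9 of 19 tested and rose in none (median -0.91). H2-D1, a classical heavy chain, was at 3328 and 3593 CPM in siCont-LNA and 1376 and 1717 CPM in siFXR1-LNA (log2 fold change -1.21 ± 0.17 (SE), adjusted p = 0.0104 in edgeR). B2m was at 3969 and 4149 CPM in siCont-LNA and 2492 and 2201 CPM in siFXR1-LNA (log2 fold change -0.84 ± 0.15 (SE), adjusted p = 0.0185). Psmb9, an immunoproteasome subunit, was at 630.3 and 633 CPM in siCont-LNA and 263 and 218 CPM in siFXR1-LNA (log2 fold change -1.45 ± 0.22 (SE), adjusted p = 0.0119). The libraries of the groups were apart for all 3. H2-K1, H2-Q7, H2-T22, H2-T23, Psme1 and Psme2 were the remaining falls; the H2-Q and H2-T genes are near-identical families whose reads may be split between copies. In the other barcodes H2-D1 was at 1912, 2101, 788 and 1467 CPM and B2m at 1833, 1965, 1024 and 1400 CPM. With further lineage genes barred, the calls of H2-D1, H2-K1, B2m and Psmb9 did not hold (log2 fold changes -0.84, -0.65, -0.7 and -0.96), nor did that of Isg15 (-1.14), while Bst2 and Usp18 still passed.

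Genes that mark mature DCs fell in 11 of 30 tested and rose in none (median -0.91). Cst3 was at 15698 and 17452 CPM in siCont-LNA and 8622 and 8569 CPM in siFXR1-LNA (log2 fold change -1.0 ± 0.12 (SE), adjusted p = 0.00667 in edgeR). Zmynd15, a zinc finger gene of mature DCs, was at 399 and 485 CPM in siCont-LNA and 109 and 109 CPM in siFXR1-LNA (log2 fold change -2.07 ± 0.26 (SE), adjusted p = 0.00782), against 17.4, 10.5, 8.59 and 9.19 CPM in the other barcodes. Nudt17 was at 357 and 319 CPM in siCont-LNA and 109 and 96.7 CPM in siFXR1-LNA (log2 fold change -1.77 ± 0.26 (SE), adjusted p = 0.0116), and Serpinb9, an inhibitor of granzyme B, at 357 and 498 CPM in siCont-LNA and 75.3 and 157 CPM in siFXR1-LNA (log2 fold change -1.92 ± 0.35 (SE), adjusted p = 0.0205). Both siFXR1-LNA libraries were lower for each gene. Tmem123, Epsti1, Anxa3, Serpinb6b, Net1, Tnfrsf4 and Arc were the others. With further lineage genes barred, which left 33, 54, 12 and 14 members, Cst3, Zmynd15 and Nudt17 did not pass (log2 fold change -0.84, -1.37 and -1.66, adjusted p = 0.0887, 0.0887 and 0.059 in edgeR), while Serpinb9 did.

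Ccl5 fell (9637 and 8806 CPM in siCont-LNA and 5942 and 3245 CPM in siFXR1-LNA; log2 fold change -1.06 ± 0.25 (SE), adjusted p = 0.0489 in edgeR), and so did Aldh1a2 (372 and 248 CPM in siCont-LNA and 113 and 68.5 CPM in siFXR1-LNA; log2 fold change -1.83 ± 0.35 (SE), adjusted p = 0.025) and Il15 (131 and 178 CPM in siCont-LNA and 41.8 and 56.4 CPM in siFXR1-LNA; log2 fold change -1.70 ± 0.33 (SE), adjusted p = 0.026). In conventional DCs Ccl5 was at 92.2, 46.8, 83.8 and 125 CPM, and the effects differed (log2 fold change -1.92 ± 0.31 (SE), adjusted p = 0.00396). Irf8 was at 262 and 346 CPM in siCont-LNA and 50.2 and 76.6 CPM in siFXR1-LNA (log2 fold change -2.30 ± 0.32 (SE), adjusted p = 0.0102 in edgeR), and conventional DCs were at 554, 605, 217 and 429 CPM. Vim, vimentin, Tmsb10, Myo1g and Adam19 fell among 22 migration genes tested (median -0.51). Of 17 immediate early and heat shock genes tested (median 0.13), Hspa8, a heat shock chaperone (-1.46), and Hsp90ab1 (-0.81 on the log2 scale) fell. Ier2 and Ier3 of the same list rose. With further lineage genes barred, Ccl5, Il15, Vim, Tmsb10 and Hspa8 did not pass (log2 fold change -0.62, -0.96, -0.72, -1.04 and -1.30, adjusted p = 0.538, 0.416, 0.181, 0.0519 and 0.0675 in edgeR), while Aldh1a2 and Irf8 did. Ccl5 lost its call in 7 of 19 alternatives, with log2 fold changes from -1.57 to -0.39. Il12b was at 263 and 299 CPM in siCont-LNA and 20.9 and 141 CPM in siFXR1-LNA, and 80% and 54.3% of its UMIs in the siFXR1-LNA libraries came from 1 cell each.

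Costimulation genes had 0 of 11 calls in edgeR (median 0.03) and NF-kappaB genes 0 of 21 (median -0.27). At an unadjusted p under 0.05, 1101 of the 5181 genes passed in all. Cd40 (114 and 118 CPM in siCont-LNA and 121 and 125 CPM in siFXR1-LNA; log2 fold change 0.03 ± 0.26 (SE), adjusted p = 0.96) was nearly level, and Relb (654 and 769 CPM in siCont-LNA and 401 and 556 CPM in siFXR1-LNA) was lower in both siFXR1-LNA libraries without passing. Cd80 was at 17 and 75.4 CPM in siCont-LNA and 105 and 113 CPM in siFXR1-LNA (log2 fold change 1.15 ± 0.54 (SE), adjusted p = 0.268). A p above the threshold does not show that the groups were equal.

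MHC class II genes had 0 of 10 calls in mature DCs (median -0.02). In the difference of effects from conventional DCs 0 of 10 passed (median 0.20), near the 0.343% and 0.977% over all genes. Their change was also compared with that in macrophages, barcodes with at least 3 UMIs of C1qa and C1qb. H2-Aa was at 5518 and 4051 CPM in siCont-LNA and 4315 and 7844 CPM in siFXR1-LNA in mature DCs and at 2741, 3055, 711 and 1228 CPM in macrophages, and the effects differed (log2 fold change 1.62 ± 0.30 (SE), adjusted p = 2.90e-05 in edgeR, mature DCs minus macrophages). The difference of effects was positive past the threshold for 7 of 10 class II genes, among them H2-Ab1 (1.89), H2-Eb1 (1.84) and Cd74 (1.27 on the log2 scale), beside 1.31% of 13699 genes tested in that direction and 1.91% in the other. Over all genes, 441 passed, and 219, 194 and 274 passed without siCont-LNA replicate 2, siFXR1-LNA replicate 1 and siFXR1-LNA replicate 2.

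Hypoxia and glycolysis genes rose in 12 of 21 tested and fell in none (median 1.59). Vegfa, which drives vessel growth, was at 5.1 and 5.69 CPM in siCont-LNA and 197 and 76.6 CPM in siFXR1-LNA (log2 fold change 4.53 ± 0.59 (SE), adjusted p = 0.009 in edgeR). Gapdh, a glycolytic enzyme, was at 2069 and 1675 CPM in siCont-LNA and 3312 and 3789 CPM in siFXR1-LNA (log2 fold change 0.87 ± 0.18 (SE), adjusted p = 0.0321). Bnip3, a mitophagy receptor induced by low oxygen, was at 15.3 and 9.96 CPM in siCont-LNA and 142 and 84.6 CPM in siFXR1-LNA (log2 fold change 3.10 ± 0.44 (SE), adjusted p = 0.0104). Both siFXR1-LNA libraries lay above both controls for these genes. Gapdh did not pass with further lineage genes barred (log2 fold change 0.83, adjusted p = 0.113 in edgeR), and over 19 alternatives it lost its call in 4 and Eno1 in 6, whereas Vegfa and Bnip3 lost theirs in none of 18. Slc2a1, a glucose transporter, Eno1, Mif, Pgam1, Ero1l, Ndrg1, P4ha1, Egln3 and Hilpda were the others. Slc2a1 lost its call in 3 of 13 alternatives. In the difference of effects from conventional DCs, 1 of 22 tested genes of this list passed, Slc2a1 (list median 0.42), beside 0.343% of all genes in that direction. In the other barcodes Vegfa was at 16.7, 13.7, 389 and 216 CPM and Bnip3 at 20.2, 30.9, 353 and 376 CPM, above the members in each library.

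The 10 largest rises were Cxcl2, Lcn2, Saa3, Cxcl3, Chil3, Fpr1, Acod1, F13a1, Cd33 and Abca1. Of these, Abca1 lost its call in 5 of 11 alternatives (log2 fold change 1.14 to 6.78), Cd33 in 3 of 13, Fpr1 in 2 of 12 and Chil3 in 1 of 18. Saa3, serum amyloid A3, was at 61.2 and 32.7 CPM in siCont-LNA and 6615 and 2551 CPM in siFXR1-LNA in mature DCs and 557, 665, 26750 and 33154 CPM in the other barcodes (log2 fold change 6.56 ± 0.53 (SE), adjusted p = 0.00128 in edgeR). Cxcl2, a neutrophil chemokine, had 0, 1, 105 and 44 UMIs, and 57.1% and 31.8% of the siFXR1-LNA UMIs came from a single cell each. Lcn2 was at 1.7 and 7.12 CPM in siCont-LNA and 1104 and 310.4 CPM in siFXR1-LNA, against 12.1, 109, 2705 and 4263 CPM elsewhere. Chemokines rose in 3 of 9 tested, Cxcl2, Ccl2 and Ccl4, each at few UMIs in the controls. Il1rn, the interleukin 1 receptor antagonist (25.5 and 15.7 CPM in siCont-LNA and 129.6 and 72.6 CPM in siFXR1-LNA), and Socs3, a brake on cytokine signaling (15.3 and 4.27 CPM in siCont-LNA and 58.5 and 56.4 CPM in siFXR1-LNA), also rose. Of the 120 rises, 86 were lower in mature DCs than in the other barcodes of both siFXR1-LNA libraries and 22 were higher in both, and for 101 the other barcodes were higher in siFXR1-LNA too. The same shares over all genes tested were not counted, so these counts do not set the rises apart from other genes. The granulocyte markers, 8 genes with S100a9 the most abundant, summed to 23.8, 354, 5716 and 935 CPM in the members and to 472, 3289, 6640 and 10399 CPM in the others. The 10 macrophage markers, led by Lyz2, summed to 589.6, 215, 849 and 1141 CPM in the members, against 17464, 12701, 7553 and 16856 CPM in the others. No granulocyte or macrophage marker on these lists was at 0 in the members. Whether RNA from other cells takes part in the rises was not tested.

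Among the 10 largest falls were Upb1, Ifit1, Dnase1l3, Cpa3, Tgtp1, Oasl1, Tpsb2, Igfbp4 and Mcpt4. Cpa3 kept its call in all 17 alternatives that gave a value, whereas Mcpt4 lost it in 5 of 18, Oasl1 in 3 of 18, Igfbp4 in 2 of 17 (log2 fold change -4.23 to -0.61), Upb1, Dnase1l3 and Tgtp1 in 2 of 15 each, and Ifit1 and Tpsb2 in 1 each. Cpa3, Tpsb2 and Mcpt4 are mast cell proteases: the 7 mast cell and basophil markers, led by Cma1, summed to 836, 316, 33.5 and 44.3 CPM in mature DCs and 1294, 468, 51.4 and 86.2 CPM in the other barcodes, with Mcpt8 at 0 in mature DCs. Their part in these falls was not tested. Upb1, an enzyme of pyrimidine breakdown, had 26, 27, 0 and 0 UMIs and Dnase1l3, a secreted DNase of DCs, 21, 31, 0 and 0, which makes them at least 6.67-fold and 6.54-fold lower. Of the 127 falls, 104 were higher in mature DCs than in the other barcodes of both siCont-LNA libraries and 19 were lower in both, and for 92 the other barcodes fell too. For these counts as well, the shares over all genes tested were not counted.

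**Figure D3:**
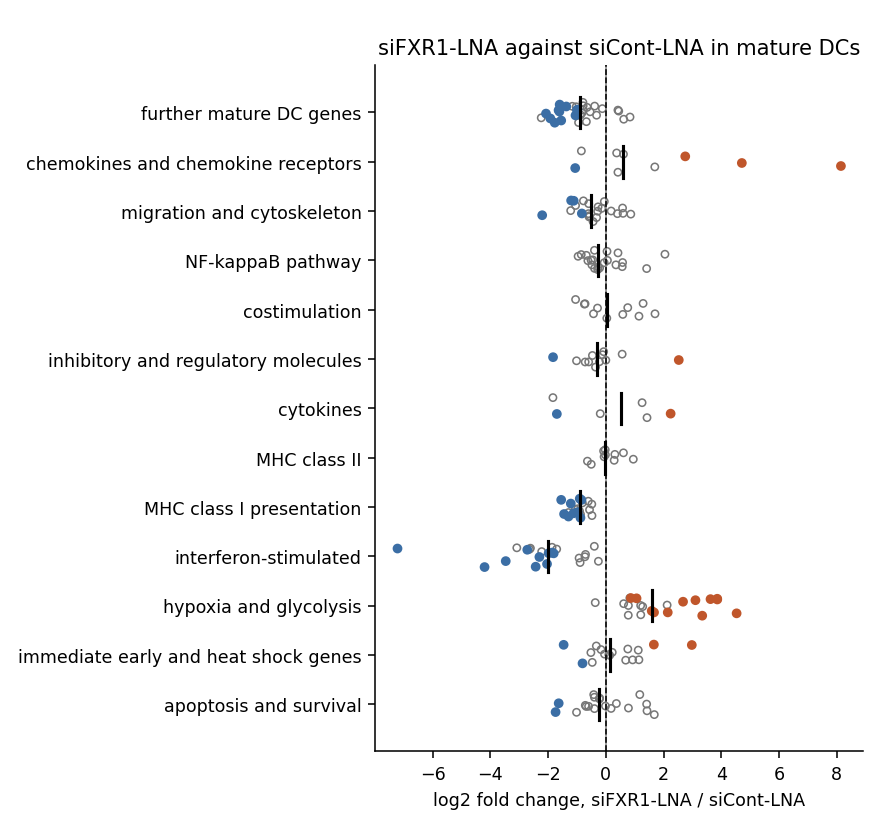
Log2 fold changes of siFXR1-LNA against siCont-LNA in mature DCs for the tested members of each gene list. Filled points passed an adjusted p of 0.05 (orange higher, blue lower), open points did not, black ticks are list medians and the dashed line is the median of all genes tested, 0.02. Interferon-stimulated genes lie to the left (median -2.01) and hypoxia and glycolysis genes to the right (median 1.59).

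**Figure D4:**
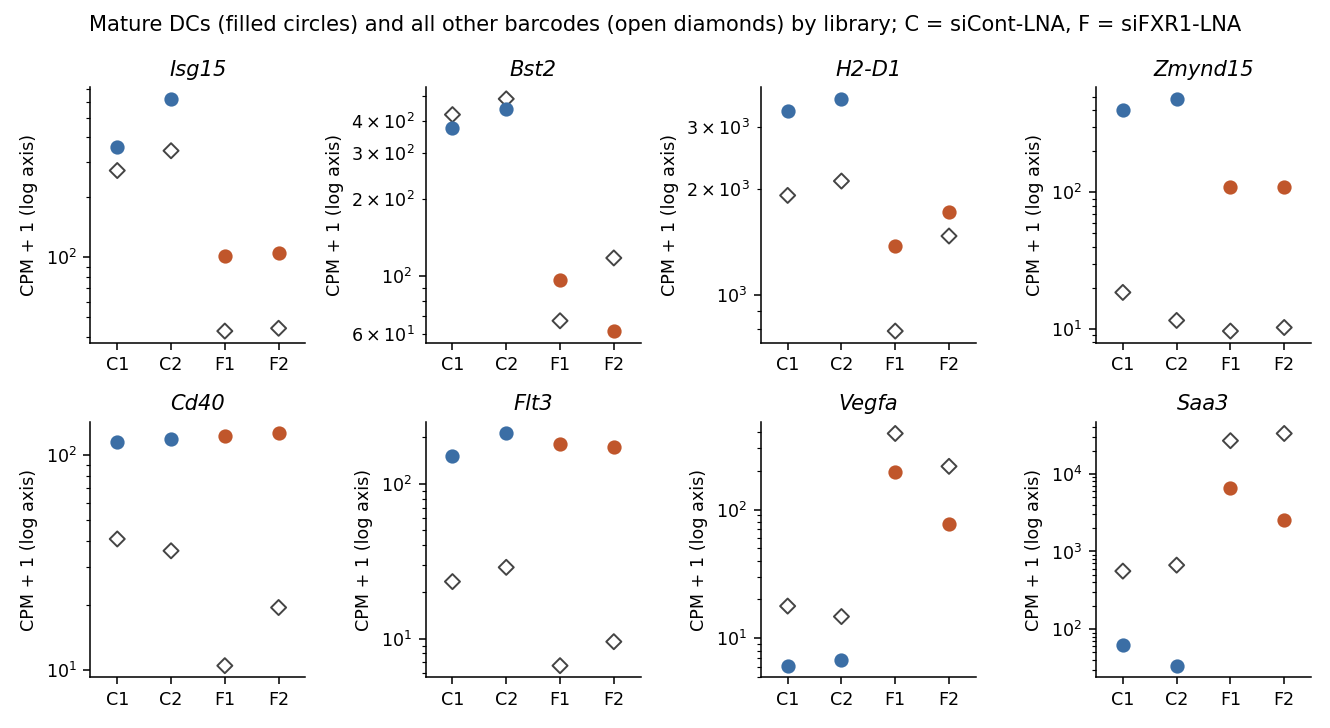
CPM + 1 on a log axis of 8 genes in mature DCs (filled circles, blue siCont-LNA and orange siFXR1-LNA) and in all other barcodes (open diamonds) of each library. Isg15, Bst2 and H2-D1 are lower in siFXR1-LNA in both, Zmynd15, Cd40 and Flt3 are higher in mature DCs in every library, and Vegfa and Saa3 are higher in the other barcodes.

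The change between the libraries labelled siFXR1-LNA and siCont-LNA differed between mature and conventional DCs for 100 of 7574 genes, 26 with a more positive (0.343%) and 74 with a more negative (0.977%) effect in mature DCs. The count was 207 without siCont-LNA replicate 1, 39 without siCont-LNA replicate 2 and 158 without siFXR1-LNA replicate 1. The libraries were a block in this edgeR fit, and conventional DCs were the cDC1-like and cDC2-like sums together. Gclc, the catalytic subunit of glutathione synthesis, was at 309 and 280.4 CPM in siCont-LNA and 20.9 and 36.3 CPM in siFXR1-LNA in mature DCs and at 10.3, 12, 21 and 15.2 CPM in conventional DCs (log2 fold change -4.09 ± 0.61 (SE), adjusted p = 0.00164). Gclc was thus high in the control mature DCs and near the conventional DC level in siFXR1-LNA. Bcl2l14, a BCL2 family member, was at 304, 492, 125 and 121 CPM in mature and 9.81, 13.6, 47.1 and 16.9 CPM in conventional DCs (log2 fold change -3.16 ± 0.48 (SE), adjusted p = 0.00212).

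Genes that mark mature DCs were more negative in 9 of 30 and more positive in none (median -1.30, against -0.08 over all genes tested), among them Cst3 (-0.76), Epsti1 (-1.62), Fabp5 (-1.76) and Tmem123 (-1.20). Relb and Birc3 were more negative too, and each of their mature DC changes alone did not pass. Birc3 was at 443, 401, 255 and 411 CPM in mature DCs and 54, 59.7, 128 and 120 CPM in conventional DCs. Cd274 was at 255, 409.9, 347 and 290.2 CPM and 28.5, 27.8, 89.1 and 55.8 CPM (log2 fold change -1.51 ± 0.35 (SE), adjusted p = 0.0416 in edgeR): it was higher in conventional DCs of both siFXR1-LNA libraries, with no like shift in mature DCs. B2m and H2-D1 were more negative in mature DCs, and Itgam, Fcer1g and Slc2a1 more positive. In mature DCs Itgam, an integrin of myeloid cells, was at 15.3, 5.69, 138 and 84.6 CPM, and in conventional DCs at 150.1, 225, 209.5 and 262 CPM.

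**Figure D5:**
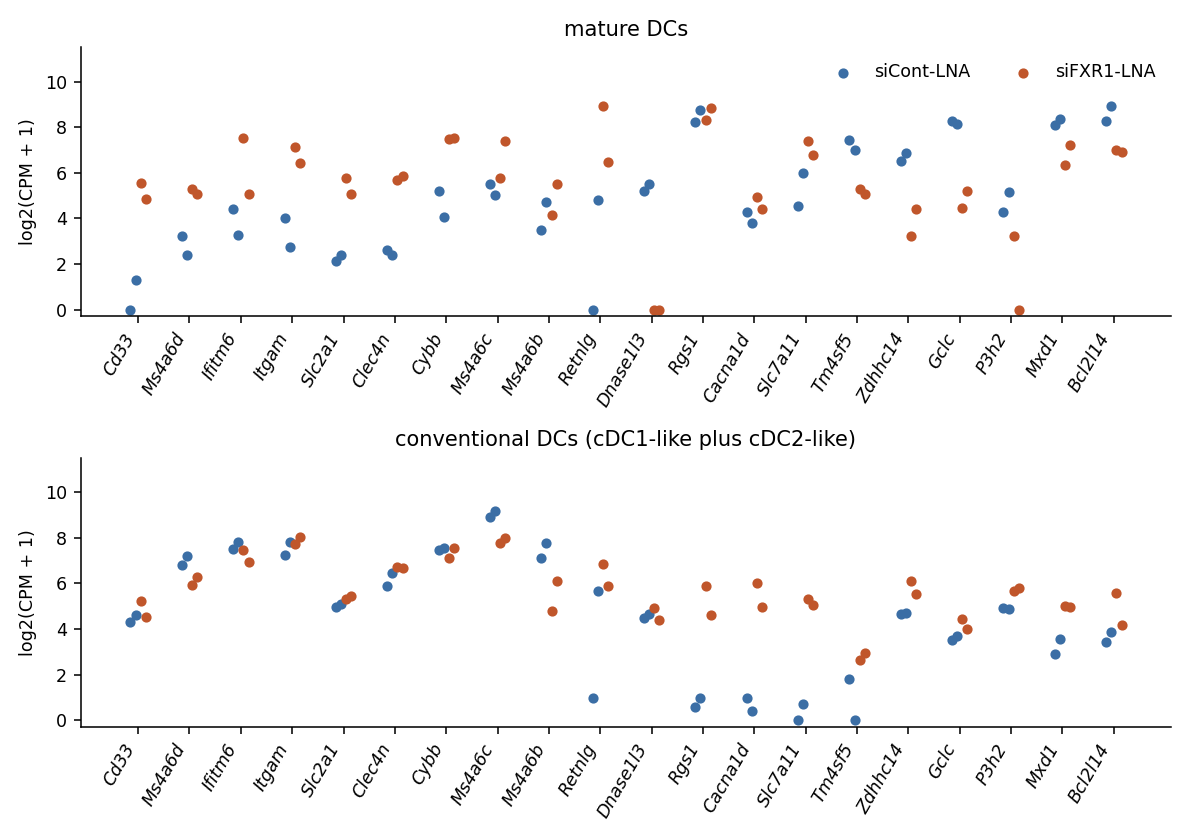
Levels in log2(CPM + 1) of the 20 genes with the largest differences of effect, in mature DCs (top) and conventional DCs (bottom), with 2 points for each group (blue siCont-LNA, orange siFXR1-LNA). Gclc, Tm4sf5 and Zdhhc14 are lower in siFXR1-LNA in mature DCs and not in conventional DCs, while Rgs1 is level in mature DCs (302, 437, 322 and 459 CPM) and higher in siFXR1-LNA in conventional DCs.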

How the data were processed

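Gene by barcode matrices of raw UMI counts from 10x Genomics 3′ libraries of ascites, aligned to mm10, were deposited by the authors as unnormalized counts, 1 matrix for each of 4 libraries. The submitters' processing notes name Cell Ranger 7.0.0, the study's methods give another release, and the kit version also differs between the sources. Counts of 32285 genes were summed over the barcodes of each class and library and tested with edgeR 4.0.16 (TMM, filterByExpr, quasi-likelihood F test, Benjamini-Hochberg over all genes tested, threshold 0.05) in R 4.3.3. Libraries, each a pool of mice, were the replicates, and p-values measure only the spread between these 4. Shares were compared by a two-sided exact permutation test (scipy 1.17.1), with exact binomial intervals. The scripts were tested on simulated data with known changes. Between the groups in mature DCs, 25% of 2-fold and 74% of 4-fold changes were recovered. For the difference from conventional DCs it was 13% and 53%, and for that from macrophages 3% and 33%. Against cDC1-like cells it was 52% and 96%, and against cDC2-like cells 66% and 97%. A gene without a call may thus still have changed.

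The 3 selecting genes got no test. Some genes that the rule names are not reported here. Doublets were scored with Scrublet in scanpy 1.11.5, and 0, 2, 3 and 1 members lay among the highest 5% of scores of their library; they were kept in the main analysis. Linear folds against a group at 0 UMIs used 3 counts over the group as the floor, whereas the largest changes were chosen by fitted values. The members and gene lists were chosen with earlier results of these data known. Named were the 10 largest changes in each direction among genes past the threshold with no overlap of the groups (or the same direction in all 4 libraries), and list members past the threshold by mean level; further list members were named after their values were seen. Alternatives were other gates, gene and mitochondrial limits, more barred lineage genes, Scrublet scores, denominators, thinning to 1500 UMIs, DESeq2 1.42.0, RLE factors, unfiltered counts, a block for the replicate number, and leaving out each library. The 3 gates (no barred genes, at most 2 UMIs of them, at least 10 selecting UMIs) were added after seeing the data.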

Additional observations from a re-analysis of the deposited data

Results flagged for a closer look

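In the test of the difference between cell classes, the change from siCont-LNA to siFXR1-LNA differed between mature and conventional DCs for 100 genes and between mature DCs and macrophages for 441. Among the 10 genes with the largest positive difference (mature minus conventional DCs, log2 scale), Cd33 had 4.82, Ms4a6d 3.27, Ifitm6 3.12, Itgam 2.97, Slc2a1 2.91, Clec4n 2.89, Cybb 2.87, Ms4a6c 2.56, Ms4a6b 2.56 and Retnlg 2.34. When each library was left out in turn, Cybb alone of these 10 kept its call throughout. Without siCont-LNA replicate 2, Cd33 (7.08), Ms4a6d (2.64), Itgam (2.10), Slc2a1 (3.04), Clec4n (2.44) and Retnlg (4.28, adjusted p = 0.863 in edgeR) did not pass. Ifitm6 (1.87), Slc2a1 (2.52) and Retnlg (1.44) did not without siFXR1-LNA replicate 1, nor Ms4a6c (1.72) and Ms4a6b (2.58) without siFXR1-LNA replicate 2. Cybb, an NADPH oxidase subunit, was at 35.7, 15.7, 176 and 181 CPM in mature DCs of siCont-LNA 1, siCont-LNA 2, siFXR1-LNA 1 and siFXR1-LNA 2, and at 176, 187, 139 and 188 CPM in conventional DCs (log2 fold change 2.87 ± 0.40 (SE), adjusted p = 0.00107 in edgeR). The granulocyte markers summed to 23.8, 354, 5716 and 935 CPM in the members of the 4 libraries, and their part in these differences was not tested.

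Among the 10 largest negative differences, Dnase1l3 had -8.60, Rgs1 -5.50, Cacna1d -5.44, Slc7a11 -4.73, Tm4sf5 -4.70, Zdhhc14 -4.16, Gclc -4.09, P3h2 -3.67, Mxd1 -3.30 and Bcl2l14 -3.16. Tm4sf5 and P3h2 did not pass without siCont-LNA replicate 2 (-3.63 for Tm4sf5) or without siFXR1-LNA replicate 2 (-4.34 and -2.54), Tm4sf5 was -7.39 without siCont-LNA replicate 1, and P3h2 was -9.04 without siFXR1-LNA replicate 1, while the other 8 kept their calls with each library left out. Slc7a11, a cystine transporter, was at 22.1, 62.6, 167 and 109 CPM in mature DCs and 0, 0.632, 39.3 and 32.1 CPM in conventional DCs (log2 fold change -4.73 ± 0.69 (SE), adjusted p = 0.00164 in edgeR). Rgs1, a brake on chemokine receptor signaling, was at 302, 437, 322 and 459 CPM in mature DCs and 0.491, 0.948, 57.6 and 23.7 CPM in conventional DCs. Dnase1l3 had 21, 31, 0 and 0 UMIs in mature DCs, and Slc7a11 and Rgs1 few or none in conventional DCs of siCont-LNA, so their fitted differences are no bounds.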

How the results depend on the processing

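The lower share of mature DCs in the libraries labelled siFXR1-LNA kept its direction under all gates, limits and denominators tried, with the difference between -0.962 and -0.570 percentage points when 1 library was left out. The ratio to conventional DCs kept its direction as well (0.155 to 0.358 without 1 library), but the groups overlapped when all 3 selecting genes (difference 0.038) or, in an alternative added after seeing the data, at least 10 selecting UMIs (0.0837) were required. Of 247 genes called between the groups, the number was 69 with all 3 selecting genes, 59 with further lineage genes barred, where 1780 genes were tested, and 577 with no filter on low counts, where 15070 were. DESeq2 called 188, of which 67 were higher (35.6%, against 48.6% in edgeR). Leaving out 1 library gave 222 to 387. For the other comparisons it gave 1111 to 2368 (cDC1-like), 1157 to 2379 (cDC2-like), 39 to 207 (difference from conventional DCs) and 194 to 529 (difference from macrophages). In these fits a lone library was assumed to vary like the other groups.

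With the replicate number as a block, 82 genes passed, 45 higher and 37 lower, all among the 247. Whether the numbers pair the samples cannot be settled here. Deviations of same-numbered libraries correlated at 0.0562, and with 2 libraries a group the other pairing gives -0.0562 by construction. In both groups replicate 2 had deeper members (median 4838.5 and 6966.5 UMIs in siCont-LNA, 4788 and 6383.5 in siFXR1-LNA). Its members also had a lower median hemoglobin share (7.75% and 0.55% in siCont-LNA, 1.44% and 0.162% in siFXR1-LNA). Of 45 genes followed in the group comparison, 13 kept direction and call in every alternative that gave a value, and 32 lost the call in at least 1. All 27 and 28 followed against cDC1-like and cDC2-like cells kept both. For the differences of effect, 9 of 20 and 12 of 20 did. Arsg, in the difference from macrophages, reversed to -0.0323 without siFXR1-LNA replicate 2 (adjusted p = 1), the low end of a range up to 10.7 over the libraries left out. The causes were not tested. With 34 to 116 members a library, genes of few UMIs could not be tested.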

Other observations

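Nr4a3, an orphan nuclear receptor induced by activation, was at 328, 542, 213 and 435 CPM, against 1.28, 0, 16.5 and 0 CPM in cDC1-like cells (log2 fold change 7.74 ± 0.62 (SE), adjusted p = 4.65e-06 in edgeR), and Dusp2, a phosphatase of MAP kinases, was higher than in both lineages. Of 25 immediate early and heat shock genes, 6 of 16 tested were higher and 2 lower than in cDC1-like cells, and 7 of 16 higher and none lower than in cDC2-like cells. Over all genes tested, 19.5% were higher and 17% lower than in cDC1-like cells, and 19.3% and 17.8% than in cDC2-like cells. Of 20 apoptosis and survival genes, 9 of 16 were higher and 1 lower (Casp6) than in cDC1-like cells, and 8 of 19 higher and 2 lower (Casp6 and Casp8) than in cDC2-like cells. Among those higher than in both were Cflar, an inhibitor of caspase 8 activation, Fas, a death receptor, and Bcl2l14. Cell cycle genes were rarely abundant enough to test, 3 and 4 of 15.

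Of hypoxia and glycolysis genes, 2 of 19 tested were higher and 3 lower than in cDC1-like cells, and 1 of 21 higher and 8 lower than in cDC2-like cells. Pfkfb3, which drives glycolysis, was higher than in both lineages (2.71 and 2.71 on the log2 scale), while Ldha, lactate dehydrogenase, was lower than in both (-1.28 and -1.03). Of interferon-stimulated genes, 7 of 16 were higher and 3 lower than in cDC1-like cells, and 5 of 23 higher and 11 lower than in cDC2-like cells. Gbp2, Gbp5 and Irf1 were higher than in both, and Irf7 and Stat2 lower than in both.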
